A study of Mus musculus with 18 samples.

Results

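The voltage-gated and calcium release channels of the mouse were followed in embryonic cerebral cortex that lacked either of a pair of enzymes of the RNA mark m6A. Members were the genes named as sodium channel subunits (*Scn*, pore and beta), calcium channel pore, alpha2delta and beta subunits (*Cacna1*, *Cacna2d*, *Cacnb*) and potassium channel subunits (*Kcn*), together with the ryanodine receptors *Ryr1*, *Ryr2* and *Ryr3*. This rule used names and no measured value, and it found 127 protein-coding genes among the 55153 genes of the RNA-seq tables. The set held 10 sodium channel (Nav) pores and 4 Nav beta subunits, 10 calcium channel (Cav) pores with 4 alpha2delta and 4 beta subunits, 3 ryanodine receptors, 40 voltage-gated potassium (Kv) pores, 8 potassium channels gated by calcium or sodium, 15 inward rectifiers, 14 2-pore potassium channels and 15 potassium channel auxiliary subunits.

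Cortices of embryonic day 15.5 from 3 genotypes of mice labelled C57BL/6 (the floxed lines also carried 129 background) were profiled by RNA-seq, which measures RNA abundance, and by Ribo-seq, which counts the fragments that ribosomes protect (footprints). Ctrl was wild type, F-cKO carried Fto f/f with Emx1-Cre, and M-cKO carried Mettl3 f/f with Emx1-Cre. Each group had 3 libraries per assay, 18 in all, labelled as biological repeats. Mettl3 is the methyltransferase that writes m6A and Fto is a demethylase that removes it, and the question was how the loss of each changes RNA level and translation. Emx1-Cre acts in the dorsal cortical lineage that gives excitatory neurons and glia, so interneurons, vessels and immune cells of the whole cortex kept the gene. Ctrl carried no Cre, so an effect of the Cre allele cannot be told apart from that of the deletion.

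Voltage-gated channels open when the membrane depolarises. Nav channels carry the rising phase of the action potential, Cav channels admit the calcium that triggers transmitter release and gene regulation, and Kv channels repolarise the cell. Inward rectifiers and 2-pore channels set the resting potential, while ryanodine receptors release calcium from the endoplasmic reticulum. In cortex of this age most neurons are young, and spiking and calcium signals are still maturing.

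RNA-seq libraries held 18504094 to 22592406 counts and Ribo-seq libraries 10973699 to 35853227. *Fto* RNA was at 3.26, 7.56 and 2.43 FPKM in F-cKO against 8.37 to 11.2 in Ctrl (log2 fold change −1.21 ± 0.33, SE), so RNA-seq F-cKO replicate 2 lay nearest to Ctrl. Footprints of *Fto* in F-cKO were at 2.11 to 4.04 RPKM against 17.6 to 25.9 in Ctrl. *Mettl3* footprints fell in M-cKO (−0.55 ± 0.09) whereas its RNA was higher (0.50 ± 0.09). These counts cover the whole gene and the deletion spans a few exons, so the RNA level does not check the label. Ribo-seq F-cKO replicate 2 stood apart from its group, with r of 0.875 to 0.879 on log counts, and the F-cKO footprint results that rest on it are given with and without it, here or under the processing alternatives. Markers of excitatory neurons were high in every library (summed FPKM 1843 to 2207 over 9 genes). Skeletal muscle markers, of which *Ryr1* and *Cacna1s* are also typical, summed to 1.31 to 2.36 FPKM over 9 genes in RNA-seq and to 5.46 to 12.7 RPKM in Ribo-seq. Interneuron markers summed to 135 to 152 FPKM (Ctrl), 118 to 189 (F-cKO) and 229 to 287 (M-cKO), and 7 of 7 rose in M-cKO. Cortical progenitor markers summed to 244 to 354, 422 to 488 and 379 to 439 FPKM in the same order, and meningeal markers to 11.8 to 22.2, 2.97 to 9.78 and 6.06 to 30.5. In bulk cortex, fewer cells of a type and less RNA per cell cannot be told apart, and the part of these shifts in the results that follow was not tested.

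In Ctrl, 71 of the 127 channel genes reached a mean of 1 FPKM. The calcium channel beta subunit *Cacnb3*, a cytosolic chaperone of Cav pores, was the highest at 80.4 ± 4.66 FPKM (SD, n = 3). It was followed by the Nav beta subunit *Scn3b* at 34.4 ± 2.65 and the T-type calcium channel *Cacna1h* at 18.3 ± 0.87. The leading members of the other classes were the mechanosensitive 2-pore channel *Kcnk2* (12.7 ± 0.66), the calcium sensor *Kcnip3* (12 ± 0.73), the ATP-sensitive inward rectifier *Kcnj11* (11.4 ± 1.05), *Cacna2d1* (11.2 ± 1.38), the embryonic sodium channel *Scn3a* (8.72 ± 0.69), *Ryr3* (4.06 ± 0.17) and the calcium-gated *Kcnn2* (3.79 ± 0.30). *Kcnk2*, *Kcnip3*, *Kcnj11* and *Cacna2d1* overlapped within 1 SD of their neighbours. The skeletal muscle pores were near 0, with *Scn4a* at or under 0.0138 FPKM and *Cacna1s* at or under 0.0495 in every library, and *Kcna10* and *Kcnk16* had a count of 0 in all 9 RNA-seq libraries.

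Many channel genes had less RNA in M-cKO than in Ctrl. Of the 103 members that passed the count filter, 36 fell and 13 rose in M-cKO (adjusted *P* below 0.05, edgeR's quasi-likelihood test with Benjamini-Hochberg adjustment over 16968 genes). That is 35.0% of members lower against a background of 14.1% of all tested genes, and 12.6% higher against 15.5%. The median log2 fold change was −0.19 over members and −0.01 over all genes tested. By class, 5 of 6 tested Nav pores, 5 of 8 Cav pores, 2 of 3 ryanodine receptors, 10 of 35 Kv pores and 4 of 13 inward rectifiers fell. The plot of fold changes by class shows called members on both sides of 0.

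**Figure D1:**
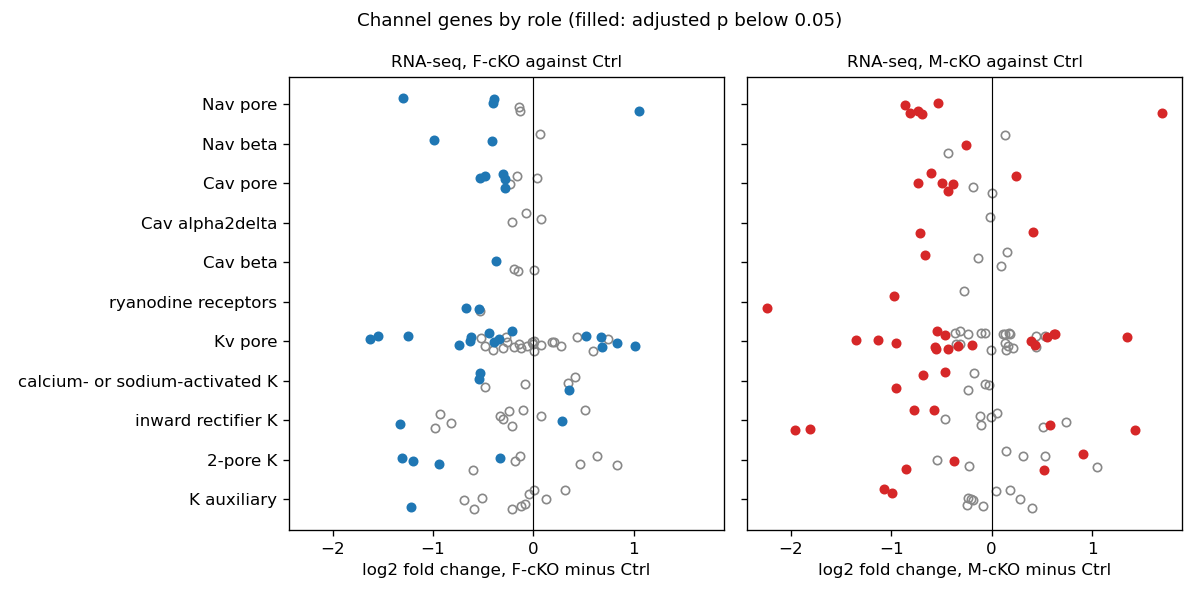
Log2 fold change of RNA-seq counts (x axis) of each tested channel gene by class (rows) in F-cKO (left) and M-cKO (right) against Ctrl, 3 libraries a group. Filled points passed an adjusted P of 0.05 and open points did not; 31 of 39 filled points in F-cKO and 36 of 49 in M-cKO lie left of 0.

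The ryanodine receptors held the channel gene with the smallest adjusted *P* in M-cKO. *Ryr1* (ENSMUSG00000030592, GRCm38 chr7:29003340-29125179), best known as the calcium release channel of skeletal muscle, was at 2.38, 3.12 and 3.48 FPKM in Ctrl, 1.55, 2.34 and 2.38 in F-cKO and 0.680, 0.692 and 0.545 in M-cKO. All 3 M-cKO libraries lay under every library of the other groups. Its RNA fell by 2.24 ± 0.14 on the log2 scale (edgeR adjusted *P* = 9.86e-06) in M-cKO, while the F-cKO value of −0.53 ± 0.17 did not pass (adjusted *P* = 0.0569), although it did with DESeq2 (0.00781). *Ryr3*, the isoform named for brain (chr2:112631354-113217405), was at 3.92, 4.25 and 4.03 FPKM in Ctrl, 2.47, 2.85 and 3.09 in F-cKO and 1.91, 2.20 and 2.13 in M-cKO, with no overlap between any of the groups. It fell in both knockouts, by 0.54 ± 0.09 in F-cKO (adjusted *P* = 0.00443) and by 0.97 ± 0.07 in M-cKO (1.81e-05). *Ryr2*, the cardiac isoform, was low throughout at 0.262 to 0.541 FPKM. It fell in F-cKO (−0.67 ± 0.19, adjusted *P* = 0.0361) with overlapping libraries, and its M-cKO value was −0.27 ± 0.17 (0.264). The F-cKO call of *Ryr2* was lost without Ctrl replicate 1, Ctrl replicate 3, F-cKO replicate 1 or F-cKO replicate 3 (edgeR adjusted *P* = 0.0809 to 0.128). Over the 3 genes the summed level was 7.53 ± 0.62 FPKM for Ctrl, 5.20 ± 0.79 for F-cKO and 3.11 ± 0.18 for M-cKO (SD, n = 3). Skeletal muscle markers were near 0 in RNA-seq, with 2 of 9 passing the count filter and none called.

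**Figure D2:**
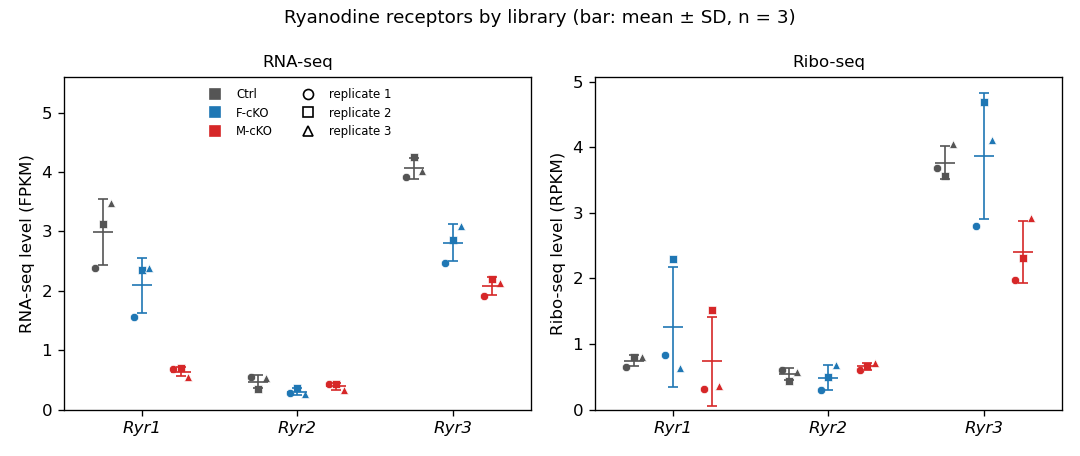
Levels of Ryr1, Ryr2 and Ryr3 in each library, RNA-seq in FPKM (left) and Ribo-seq in RPKM (right), with the mean ± SD of 3 libraries. RNA of Ryr1 and Ryr3 is lowest in M-cKO, and footprints of Ryr1 are high in replicate 2 of each knockout.

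Of the 6 Nav pores tested, 5 fell in M-cKO. *Scn2a*, the main sodium channel of young excitatory axons (chr2:65620764-65767447), was at 5.10, 4.52 and 5.81 FPKM in Ctrl, 4.26, 4.28 and 3.23 in F-cKO and 3.11, 2.80 and 2.92 in M-cKO. It fell in both knockouts, by 0.40 ± 0.12 in F-cKO (edgeR adjusted *P* = 0.0415) and by 0.81 ± 0.09 in M-cKO (0.000126). *Scn8a*, which later replaces it at the axon initial segment (chr15:100869863-101045938), went from 5.58, 6.14 and 6.41 FPKM in Ctrl to 3.98, 4.43 and 5.53 in F-cKO and 3.63, 3.94 and 3.41 in M-cKO (−0.39 ± 0.11 and −0.73 ± 0.08). In neither gene did a knockout library overlap with Ctrl. *Scn3a*, the pore with the highest level in Ctrl (chr2:65457118-65567591), fell in M-cKO alone (−0.54 ± 0.10, adjusted *P* = 0.0026), from 8.17, 8.48 and 9.5 FPKM to 6.35, 6.75 and 5.05, and its F-cKO value was −0.14 ± 0.07 (0.203). The difference between the knockouts was itself called for *Scn2a*, *Scn3a*, *Scn8a* and *Scn1a* (M-cKO minus F-cKO −0.42 ± 0.10, −0.41 ± 0.10, −0.36 ± 0.11 and −0.56 ± 0.12). Several of these calls rested on single libraries. In F-cKO, *Scn2a* no longer passed without Ctrl replicate 1 or 3 or F-cKO replicate 2 or 3 (edgeR adjusted *P* = 0.0647 to 0.150), nor *Scn8a* without any 1 Ctrl library, F-cKO replicate 1 or F-cKO replicate 2 (0.0544 to 0.118). Of the differences between knockouts, that of *Scn8a* was lost without any 1 library but F-cKO replicate 1 (0.0604 to 0.151), that of *Scn2a* without replicate 2 of either knockout (0.0602 and 0.0741) and that of *Scn3a* without F-cKO replicate 2 (0.0654). *Scn1a*, *Scn2a*, *Scn3a* and *Scn9a* form a cluster on chromosome 2, whereas *Scn8a* lies on chromosome 15.

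The remaining Nav pores that fell, named after their values were seen, were *Scn1a* (−0.70 ± 0.13 in M-cKO) and *Scn9a*, a channel known from sensory neurons, which fell in both knockouts (−1.30 ± 0.25 in F-cKO and −0.86 ± 0.28 in M-cKO) from 0.720, 0.491 and 1.01 FPKM in Ctrl. Of the Nav beta subunits, which tune gating and cell adhesion, *Scn3b* fell in both knockouts (−0.42 ± 0.10 and −0.26 ± 0.07). In M-cKO the call of *Scn9a* was lost without Ctrl replicate 1 or 3 or M-cKO replicate 2 or 3 (edgeR adjusted *P* = 0.0722 to 0.161) and that of *Scn3b* without Ctrl replicate 3 or M-cKO replicate 2 (0.0558 and 0.0668). In F-cKO the call of *Scn3b* was lost without Ctrl replicate 1 or 3 (0.0553 and 0.0741).

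**Figure D3:**
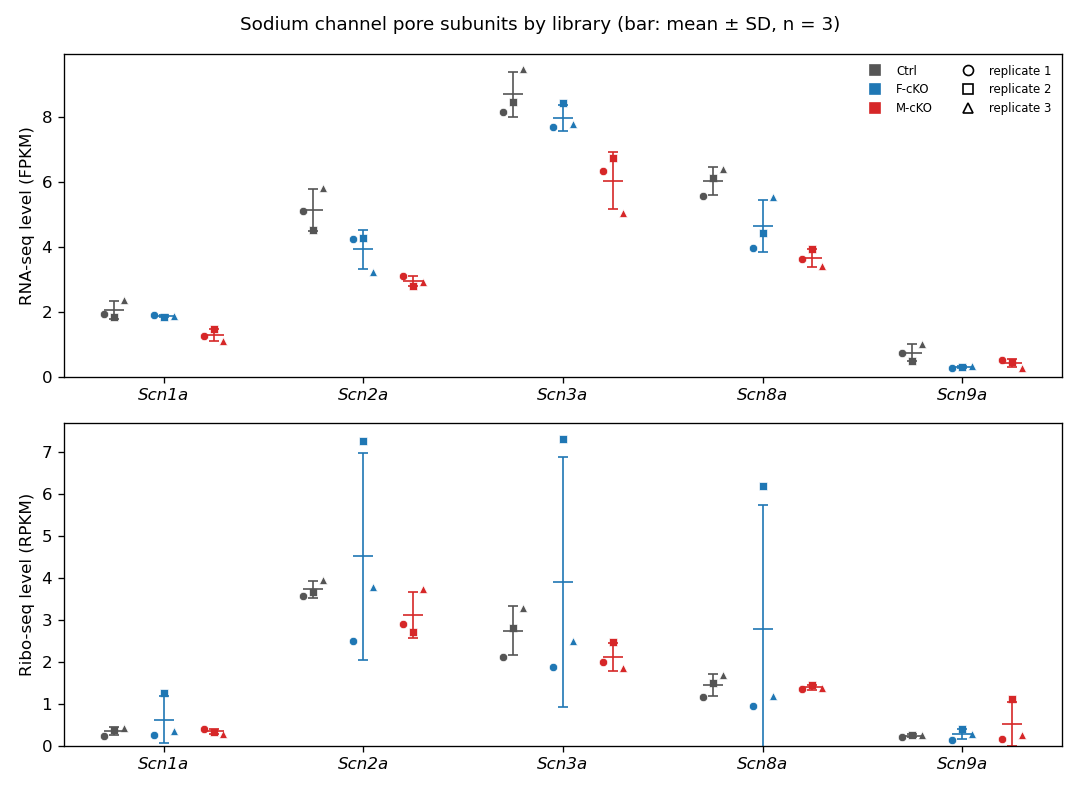
Levels of 5 sodium channel pore genes in each library, RNA-seq in FPKM (top) and Ribo-seq in RPKM (bottom), with the mean ± SD of 3 libraries (bars are cut at 0). RNA of all 5 genes is lower in M-cKO, and footprints of F-cKO replicate 2 lie far above its group in Scn2a, Scn3a and Scn8a.

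Of the 8 calcium channel pores tested, 5 fell and 1 rose in M-cKO, and 5 fell in F-cKO. *Cacna1e*, the R-type pore (chr1:154390806-154884785), was at 6.52, 6.64 and 6.74 FPKM in Ctrl, 6.22, 6.79 and 7.53 in F-cKO and 4.36, 4.06 and 3.60 in M-cKO. It fell by 0.74 ± 0.07 (edgeR adjusted *P* = 5.65e-05) in M-cKO and had 0.04 in F-cKO, with Ctrl and F-cKO overlapping. *Cacna1b*, *Cacna1c* and *Cacna1d*, the N-type pore and both L-type pores of brain, fell in both knockouts, between −0.28 and −0.48 in F-cKO and between −0.44 and −0.60 in M-cKO. The T-type *Cacna1h* (chr17:25374285-25436334) was at 17.6, 19.2 and 18 FPKM in Ctrl, 17.5, 16.2 and 15.5 in F-cKO and 18, 18.5 and 18.8 in M-cKO, and its log2 values of −0.17 ± 0.06 in F-cKO and 0.00 ± 0.06 in M-cKO did not pass. Of the other T-type pores, *Cacna1g* rose in M-cKO (0.25 ± 0.08) and *Cacna1i* fell in both knockouts (−0.53 ± 0.12 in F-cKO and −0.38 ± 0.11 in M-cKO). *Cacna1a*, the P/Q-type pore of presynaptic terminals, fell in F-cKO (−0.28 ± 0.08) and had −0.19 ± 0.08 in M-cKO (adjusted *P* = 0.0876). In F-cKO the call of *Cacna1a* was lost without any 1 library but Ctrl replicate 1 (edgeR adjusted *P* = 0.0586 to 0.128), that of *Cacna1b* without any 1 but Ctrl replicate 2 (0.0618 to 0.127), that of *Cacna1c* without Ctrl replicate 3, F-cKO replicate 1 or F-cKO replicate 2 (0.0537 to 0.0725) and that of *Cacna1i* without Ctrl replicate 3 (0.0525). In M-cKO the call of *Cacna1g* was lost without any 1 library but Ctrl replicate 3 (0.0525 to 0.104) and that of *Cacna1i* without Ctrl replicate 1 or 3 or M-cKO replicate 2 or 3 (0.0593 to 0.0953).

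The alpha2delta subunits carry Cav pores to the surface. *Cacna2d1* (chr5:15934264-16374511) fell in M-cKO, from 10.8, 10.1 and 12.8 FPKM in Ctrl to 7.01, 7.32 and 6.37 (−0.71 ± 0.09, edgeR adjusted *P* = 0.00023), and stayed at 10.5, 10.5 and 11.3 in F-cKO. *Cacna2d2* rose in M-cKO, from 5.42, 5.04 and 5.03 to 7.82, 6.85 and 6.04 FPKM (0.41 ± 0.09, adjusted *P* = 0.00647). Both differences also held directly between the knockouts (−0.65 ± 0.07 and 0.32 ± 0.10, M-cKO minus F-cKO). *Cacnb3* fell in F-cKO (−0.37 ± 0.08, adjusted *P* = 0.0144), from 75.1, 82.3 and 83.8 FPKM to 67.5, 65.5 and 55.5, and was at 72.7, 71.0 and 77.8 in M-cKO (−0.13 ± 0.07, 0.157). Without Ctrl replicate 3 the F-cKO call of *Cacnb3* was lost (edgeR adjusted *P* = 0.0567), and the difference in *Cacna2d2* between the knockouts was lost without replicate 1 or 2 of either (0.0737 to 0.122).

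Kv pores went both ways in M-cKO, 10 down and 6 up of 35 tested. *Kcnq3*, a subunit of the M-current, rose in F-cKO, from 7.30, 7.07 and 6.39 to 10.3, 9.95 and 13.5 FPKM (0.69 ± 0.11, adjusted *P* = 0.00463), and had 0.16 in M-cKO.

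Other Kv pores rose. *Kcng1*, a silent subunit that modifies other Kv pores (chr2:168260117-168281533), was at 5.25, 5.53 and 4.95 FPKM in Ctrl, 7.80, 7.15 and 7.81 in F-cKO and 8.01, 8.48 and 8.03 in M-cKO, rising in both (0.52 ± 0.08 and 0.63 ± 0.08). *Kcnh1*, an ether-a-go-go channel, went from 0.256, 0.244 and 0.240 to 0.739, 0.689 and 0.481 FPKM in M-cKO (1.35 ± 0.21, edgeR adjusted *P* = 0.00094) and also rose in F-cKO (0.68 ± 0.20). Both genes were above every Ctrl library in every knockout library. *Kcnh2*, whose human relative shapes the cardiac action potential, rose in M-cKO (0.39 ± 0.08). The Shaker-type *Kcna3* rose in F-cKO, from 3.12, 2.7 and 1.97 to 5.26, 5.53 and 5.16 FPKM (1.02 ± 0.17, adjusted *P* = 0.00551), and *Kcna1*, of the same family, rose in both (0.83 ± 0.20 and 0.56 ± 0.18). The F-cKO call of *Kcnh1* was lost with DESeq2 (adjusted *P* = 0.0918), with no filter (0.0721) and without any 1 library but F-cKO replicate 3 (0.0806 to 0.118 by edgeR). That of *Kcna1* was lost without Ctrl replicate 2 or 3 in F-cKO (edgeR adjusted *P* = 0.0558 and 0.0698), and in M-cKO without Ctrl replicate 2, Ctrl replicate 3 or any 1 M-cKO library (0.0524 to 0.107).

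The channels that hold the resting potential changed in a gene-by-gene way. *Kcnj2*, the classical inward rectifier Kir2.1 (chr11:111066164-111076825), was at 1.75, 1.49 and 2.62 FPKM in Ctrl, 0.964, 0.790 and 0.595 in F-cKO and 0.566, 0.6 and 0.515 in M-cKO. It fell by 1.33 ± 0.24 in F-cKO (edgeR adjusted *P* = 0.007) and by 1.81 ± 0.22 in M-cKO (0.000163), with all 6 knockout libraries under Ctrl. *Kcnj10*, the glial Kir4.1, rose in M-cKO from 4.61, 3.78 and 3.70 to 6.47, 5.88 and 5.86 FPKM (0.58 ± 0.10, adjusted *P* = 0.00143). *Kcnj14* rose in M-cKO to 0.908, 0.948 and 0.949 FPKM from 0.246, 0.417 and 0.374 (1.43 ± 0.25), and *Kcnj11* rose in F-cKO (0.29 ± 0.09, adjusted *P* = 0.0438). The 2-pore channel *Kcnk1* fell in both knockouts, from 8.41, 8.44 and 10.2 FPKM in Ctrl to 4.61, 4.59 and 2.65 in F-cKO and 4.59, 4.12 and 6.27 in M-cKO (−1.20 ± 0.19 and −0.86 ± 0.15). *Kcnk2* also fell in both (−0.33 ± 0.08 and −0.37 ± 0.07). Among activated potassium channels *Kcnn2*, a small-conductance channel that calcium opens, rose in F-cKO (0.35 ± 0.09, adjusted *P* = 0.0246) and had −0.24 ± 0.11 in M-cKO. *Kcnip2*, a cytosolic partner of Kv4 pores, had the smallest adjusted *P* among members in F-cKO, with 6.07, 6.69 and 8.70 FPKM in Ctrl, 3.12, 3.61 and 2.54 in F-cKO (−1.22 ± 0.16, adjusted *P* = 0.00338) and 3.50, 3.18 and 4.11 in M-cKO. Its relative *Kcnip3* passed in neither (−0.12 ± 0.09 and −0.20 ± 0.08). In F-cKO the call of *Kcnj11* was lost without Ctrl replicate 1 or 3 or F-cKO replicate 2 or 3 (edgeR adjusted *P* = 0.0778 to 0.143), that of *Kcnn2* without Ctrl replicate 2 or 3 or F-cKO replicate 2 or 3 (0.062 to 0.0843) and that of *Kcnk2* without Ctrl replicate 1, Ctrl replicate 3 or F-cKO replicate 2 (0.0645 to 0.0706).

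Members of low level and large fold were chosen for naming after their values were seen. The silent subunit *Kcns3* was at 0.451, 0.656 and 0.912 FPKM in Ctrl and between 0.154 and 0.300 in the 6 knockout libraries, and it fell in both (−1.63 ± 0.35 in F-cKO and −1.36 ± 0.32 in M-cKO, edgeR adjusted *P* = 0.0125 and 0.0082). *Kcng2*, a silent subunit too, fell in F-cKO (−1.55 ± 0.35), as did the 2-pore channel *Kcnk4* (−1.30 ± 0.37). The F-cKO call of *Kcnk4* was lost without any 1 of the 6 libraries (edgeR adjusted *P* = 0.0592 to 0.101), that of *Kcng2* without Ctrl replicate 1 or 3 (0.0548 and 0.0559) and that of *Kcns3* without Ctrl replicate 3 (0.053). *Kcnj16*, a pH-sensitive partner of Kir4.1, fell in M-cKO by 1.96 ± 0.46, from 0.181, 0.12 and 0.163 FPKM to 0.0448, 0.0252 and 0.0460, while *Kcnj10*, which encodes Kir4.1, rose there. *Kcnq5* and *Kcnab1* fell in M-cKO as well (−1.14 ± 0.15 and −1.07 ± 0.15), at 1.16, 1.43 and 1.16 FPKM for the first against 2.27, 2.72 and 3.22 in Ctrl.

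In F-cKO, 31 members fell and 8 rose of 103 tested. Those shares, 30.1% and 7.77%, stand beside backgrounds of 9.57% lower and 11.5% higher over 16944 genes, and the median was −0.21 over members and −0.01 over all genes. The comparison rests on its libraries more than that of M-cKO: without Ctrl replicate 3 it called 14 members, without F-cKO replicate 2, the library with the most *Fto* RNA of its group, it called 22 and without Ctrl replicate 1 it called 23, in place of 39. Among the members with the smallest adjusted *P* that fell were *Kcnip2*, *Ryr3*, *Kcnk1*, *Kcnj2*, *Scn9a* and *Cacna1d*, an L-type pore (−0.48 ± 0.10). Both knockouts were set against the same 3 Ctrl libraries, so their lists are not independent.

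Setting the knockouts against each other used no Ctrl library. This fit called 22 members lower and 15 higher in M-cKO of 102 tested, 21.6% and 14.7% against backgrounds of 14.3% and 13.1%, with a median of 0.08 over members. Without F-cKO replicate 2 or M-cKO replicate 1 it called 21 and 23 members in place of 37. The smallest adjusted *P* belonged to *Ryr1* (−1.72 ± 0.17, edgeR adjusted *P* = 0.000123). *Cacna2d1*, *Cacna1e* (−0.78 ± 0.09), *Kcnn2* (−0.61 ± 0.11), *Kcnq3* (−0.54 ± 0.11), the ether-a-go-go channels *Kcnh7* (−0.78 ± 0.16) and *Kcnh5* (−1.13 ± 0.24), and *Scn1a* followed. In the other direction stood *Kcnj14* (1.71 ± 0.28), the acid-sensing 2-pore channel *Kcnk3* (1.12 ± 0.19), *Cacna1g* (0.46 ± 0.08), the fast delayed rectifier *Kcnc4* (0.92 ± 0.19), *Kcnh4* (0.91 ± 0.20), the silent subunit *Kcns1* (1.22 ± 0.27) and *Kcnj10* (0.50 ± 0.12). *Kcnk3* is an example, with 1.28, 1.03 and 0.769 FPKM in F-cKO and 2.23, 2.20 and 2.29 in M-cKO. *Ryr3* (−0.44 ± 0.10) and *Kcnj11* (−0.30 ± 0.08) were lower in M-cKO too, the latter not without replicate 2 or 3 of F-cKO or 1 or 2 of M-cKO (edgeR adjusted *P* = 0.0526 to 0.0765), whereas *Cacnb3*, *Cacna1h*, *Ryr2*, *Scn3b*, *Kcnip3* and *Kcnk2* did not pass (−0.09 to 0.38).

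Channel genes are long, with a median gene span of 61.0 kb over the 103 tested members against 25.5 kb over 13686 tested protein-coding genes. In M-cKO the 36 members that fell had a median span of 151 kb, the 13 that rose 37.1 kb and the 54 not called 44.6 kb. In F-cKO the medians were alike, 61.0 kb for the 31 that fell, 58.5 kb for the 8 that rose and 61.0 kb for the others. These spans are given as a description, without a test.

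Promoters of 300 bases (250 before to 50 after the RefSeq start, GRCm38.p6) were available for 93 of the 127 members. The GC box GGGCGG, the Sp1 core, was found on either strand in 61.3% of these members and in 38.2% of all 27025 genes of that table. Of the tested members with a promoter entry, the box was in 59.3% of 27 (of the 36 that fell in M-cKO), in 69.2% of 39 (of the 54 not called) and in 6 of 6 (of the 13 that rose). TATAAA occurred in 7.53% of members and 15.7% of all genes, and TTCAGCACC, part of the element bound by the neuronal repressor REST, in 1 member and 0.433% of all genes. A match is a run of letters and not a shown site. The promoters below belong to members of M-cKO RNA-seq with a single entry, the 2 with the lowest adjusted *P* among those that fell and the 2 among those that rose. They are shown 5′ to 3′ with GC boxes of either strand in capitals, so that a RefSeq start of a gene that fell can be read against that of one that rose.
Ryr1 (fell, minus strand, chr7:29125102-29125401): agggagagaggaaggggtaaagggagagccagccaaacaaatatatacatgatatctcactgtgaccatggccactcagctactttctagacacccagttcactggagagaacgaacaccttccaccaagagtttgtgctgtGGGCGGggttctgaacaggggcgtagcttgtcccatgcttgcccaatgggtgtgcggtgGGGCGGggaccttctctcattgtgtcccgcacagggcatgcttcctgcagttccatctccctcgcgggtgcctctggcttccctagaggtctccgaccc
Cacna1e (fell, minus strand, chr1:154725871-154726170, inside the gene model): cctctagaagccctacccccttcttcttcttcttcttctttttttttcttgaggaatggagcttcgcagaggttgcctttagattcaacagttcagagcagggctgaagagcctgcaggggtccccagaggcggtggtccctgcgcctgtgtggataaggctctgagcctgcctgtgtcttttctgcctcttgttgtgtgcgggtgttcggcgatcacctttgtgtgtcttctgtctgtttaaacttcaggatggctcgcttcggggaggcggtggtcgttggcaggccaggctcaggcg
Kcnh1 (rose, plus strand, chr1:192190527-192190826, inside the gene model): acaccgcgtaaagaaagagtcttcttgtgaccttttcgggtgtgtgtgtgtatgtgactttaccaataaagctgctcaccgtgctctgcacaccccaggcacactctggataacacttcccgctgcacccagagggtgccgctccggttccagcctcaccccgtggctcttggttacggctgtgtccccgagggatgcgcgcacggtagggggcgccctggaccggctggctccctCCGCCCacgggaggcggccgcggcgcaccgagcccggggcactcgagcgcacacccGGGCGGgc
Kcnj10 (rose, plus strand, chr1:172340960-172341259): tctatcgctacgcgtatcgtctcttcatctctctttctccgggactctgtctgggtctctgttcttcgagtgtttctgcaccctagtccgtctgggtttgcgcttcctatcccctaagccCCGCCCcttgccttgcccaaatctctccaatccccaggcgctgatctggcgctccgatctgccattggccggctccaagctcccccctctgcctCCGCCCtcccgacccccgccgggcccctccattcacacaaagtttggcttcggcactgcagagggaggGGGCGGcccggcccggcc
The *Kcnj10* and *Kcnh1* stretches held 3 and 2 GC boxes, that of *Ryr1* held 2 and that of *Cacna1e* none.

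Footprints could be tested in 85 of the 127 members, because the count table has blanks for the other 42. In M-cKO, 8 members fell and 2 rose, 9.41% and 2.35% of those tested, against backgrounds of 7.5% lower and 7.13% higher over 14314 genes. The share of lower calls was thus near that of all genes. *Kcnj2* was the largest fall, at 0.469, 0.459 and 0.528 RPKM in Ctrl and 0.134, 0.121 and 0.0681 in M-cKO (−2.17 ± 0.33, edgeR adjusted *P* = 0.0116). Its libraries did not overlap with Ctrl.

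Fewer footprints in M-cKO were also found for *Kcnab1*, a cytosolic Kv beta subunit (−0.97 ± 0.21), *Ryr3* (−0.63 ± 0.15), *Kcnq5*, an M-current channel (−1.02 ± 0.26), *Kcnk1* (−0.83 ± 0.21), *Kcnh7* (−0.49 ± 0.13) and *Cacna1e* (−0.43 ± 0.11), with adjusted *P* values from 0.0266 to 0.0424. All 8 also fell in M-cKO RNA-seq. *Cacna1h* rose, from 1.61, 1.60 and 1.67 RPKM to 2.11, 2.52 and 2.50 (0.56 ± 0.13, edgeR adjusted *P* = 0.0326), with no change in its RNA. These calls depended on single libraries: leaving out any 1 of the 3 Ctrl libraries left 0 to 2 members called, and leaving out M-cKO replicates 1, 2 or 3 left 4, 6 and 12. A fit over all 9 Ribo-seq libraries, which lets F-cKO replicate 2 into the estimate of the spread, called none.

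The other member called higher was *Cacna2d4*, an alpha2delta subunit known from retina. Its footprints were 0.138, 0.184 and 0.0968 RPKM in Ctrl and 0.480, 8.37 and 0.458 in M-cKO, so replicate 2 set the fitted value of 4.53 ± 1.25 (edgeR adjusted *P* = 0.0497). Without that library the value was 1.75 ± 0.31 (0.0246). Its RNA was at or under 0.041 FPKM in every library and too low to test. The coding gene *Lrtm2* lies within *Cacna2d4* and was at 0.740, 0.783 and 0.504 RPKM in M-cKO against 0.223 to 0.402 in Ctrl, and its part in the result was not tested. M-cKO replicate 2 was also alone in *Kcna1*, at 14.9 RPKM against 1.33 and 1.33 in its group, and in *Ryr1*, at 1.52 against 0.317 and 0.364. For *Ryr1* this library decided the reading. With it the footprint change was 0.01 ± 0.58, and without it footprints fell by 1.13 ± 0.18 (adjusted *P* = 0.0184) from 0.645, 0.795 and 0.804 RPKM in Ctrl. Of the skeletal muscle markers, *Tnnt3* footprints rose in M-cKO (2.04 ± 0.47), 1 of the 4 tested.

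Leading members of other classes showed no called footprint change in M-cKO, with *Scn3a* at −0.36 ± 0.20, *Cacna2d1* at −0.39 ± 0.17, *Kcnk2* at −0.47 ± 0.18, *Kcnn2* at −0.36 ± 0.20, *Kcnj11* at −0.34 ± 0.21, *Cacnb3* at −0.17 ± 0.11, *Ryr2* at 0.30 ± 0.16, *Kcnip3* at 0.07 ± 0.14 and *Scn3b* at 0.03 ± 0.11. The 5 Nav pores tested had a median of −0.04, and none was called.

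In F-cKO no member of 85 was called, and the background was 0% of 14335 genes by edgeR. 1 member, *Cacna2d4*, had an unadjusted *P* below 0.05, beside 318 of all 14335 genes, and DESeq2 called no member either. *Ryr1*, *Ryr2* and *Ryr3* had 0.85 ± 0.55, −0.09 ± 0.35 and 0.10 ± 0.25, and the leading members of the classes ranged from −0.23 (*Cacnb3*) to 1.33 (*Cacna1h*). Without replicate 2 those values were −0.07 ± 0.19 for *Ryr1*, −0.16 ± 0.35 for *Ryr2*, −0.14 ± 0.19 for *Ryr3*, −0.24 ± 0.18 for *Cacnb3* and −0.05 ± 0.15 for *Cacna1h*. Relative to the mean of Ctrl, that library had a median log2 ratio of 1.02 over the 85 members and −0.02 over all 14313 genes, whereas members were at −0.50 and −0.01 in replicates 1 and 3. Ratios above 1 were found in 44 of the 85 members and in 2950 of all genes. Channel genes took 0.216% of its footprint counts, compared with 0.0662% and 0.0919% in the other F-cKO libraries and 0.0889% to 0.0923% in Ctrl.

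The excess in F-cKO replicate 2 was uneven over the classes. All 8 Cav pores were more than 1 log2 unit above Ctrl (median 2.04), and the 5 Nav pores (1.60), 4 alpha2delta subunits (1.95), 7 activated potassium channels (1.44) and 6 inward rectifiers (1.32) were raised as well. Lower medians were found in the 3 Nav beta subunits (1.16), 6 2-pore channels (0.69), 29 Kv pores (0.66) and 3 ryanodine receptors (0.50), and of the Kv pores 11 were above 1 and the lowest was at −0.81. *Cacna1h* stood at 8.11 RPKM beside 1.60 and 1.60 in its group, *Scn8a* at 6.21 beside 0.951 and 1.19, and *Cacna1b* at 9.08 beside 1.05 and 2.06. By contrast the 11 cytosolic auxiliary subunits (*Cacnb*, *Kcnab* and *Kcnip*) had a median of −0.39, with 2 of them above 0, and the 74 other members, the membrane subunits, a median of 1.15 with 62 above 0. This split into cytosolic and other subunits was chosen after the values were seen and has no test. *Cacnb3* shows it, with 15.9, 16.9 and 21.9 RPKM in the 3 F-cKO libraries. Genes other than channels moved in this library too. Footprints of endothelial markers summed to 87.5 RPKM over 6 genes (5.32 to 8.91 in Ctrl, and 4.97 and 7.34 in the other F-cKO libraries), of microglial markers to 12.3 over 5 genes (4.75 to 4.99 in Ctrl) and of meningeal markers to 44.1 over 6 genes (13.4 to 25.7 in Ctrl), while those of excitatory neurons summed to 1751 over 9 genes (3608 to 4136 in Ctrl). The calcium pump *Atp2a2* of the endoplasmic reticulum was at 86.6 RPKM, beside 9.14 and 13.8 in its group. The part of these shifts in the channel values was not tested. Without replicate 2 the median change over members in F-cKO was −0.19, and no member was called.

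**Figure D4:**
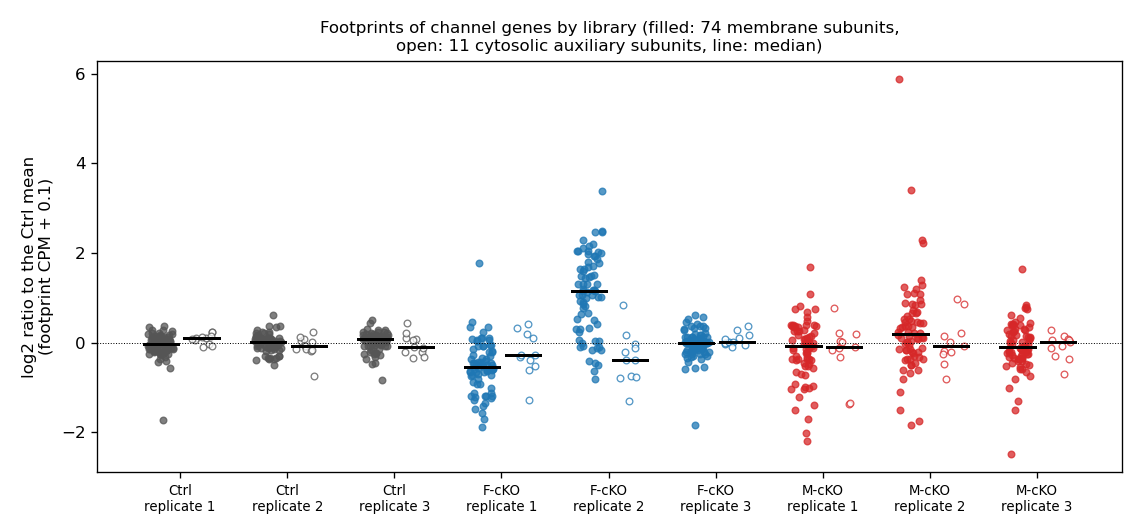
Log2 ratio of footprint CPM (plus 0.1) to the Ctrl mean for each channel gene in each Ribo-seq library. Filled points are the 74 membrane subunits, open points are 11 cytosolic auxiliary subunits and lines are medians; in F-cKO replicate 2 the medians are 1.15 and −0.39.

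Translational efficiency (TE) is the footprint level divided by the RNA level. In Ctrl the median over the 71 members with at least 1 FPKM was 0.274, against 0.855 over 11265 protein-coding genes, and 65 of the 71 lay below that median. The class medians were 0.195 for inward rectifiers, 0.218 for 2-pore channels, 0.233 for Kv pores, 0.234 for Nav beta subunits, 0.241 for Cav pores and 0.277 for Nav pores. They were 0.363 for activated potassium channels, 0.541 for Cav beta subunits, 0.562 for auxiliary subunits of potassium channels, 0.588 for the 2 ryanodine receptors at this level and 0.684 for alpha2delta subunits. FPKM and RPKM come from separate pipelines, so the ratio ranks genes within the assay pair and is no absolute rate.

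In M-cKO the knockout effect on footprints and on RNA differed in 2 of 83 members, 2.41% against a background of 3.07% of 13208 genes. *Scn8a* is the first: its RNA fell while its footprints were at 1.15, 1.5 and 1.69 RPKM in Ctrl and 1.36, 1.46 and 1.37 in M-cKO, so the TE change was 0.76 ± 0.18 (edgeR adjusted *P* = 0.0347). *Cacna1h* is the other, with 0.62 ± 0.12 (0.0218) from the rise of its footprints. *Scn2a* was just outside (0.64 ± 0.16, adjusted *P* = 0.0522), and *Ryr1* had 2.29 ± 0.62 (0.06), or 1.15 ± 0.23 (0.0246) without Ribo-seq M-cKO replicate 2. *Ryr2* and *Ryr3* had 0.64 ± 0.26 and 0.41 ± 0.17 (0.174 and 0.176). Both calls were lost in the fit over all 18 libraries. Leaving out 1 library ended that of *Scn8a* for 9 of the 12 libraries (edgeR adjusted *P* from 0.0537) and that of *Cacna1h* for 5 of 12 (0.0556 to 0.0651). The median over members was 0.32 against 0.02 over all genes, and 28 of the 83 had an unadjusted *P* below 0.05, beside 2841 of all 13208 genes. The median by class was 0.75 for the 5 Nav pores and 0.55 for the 8 Cav pores, beside −0.18 for inward rectifiers and 0.04 for 2-pore channels. Without M-cKO replicate 2 the median over members was 0.18.

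**Figure D5:**
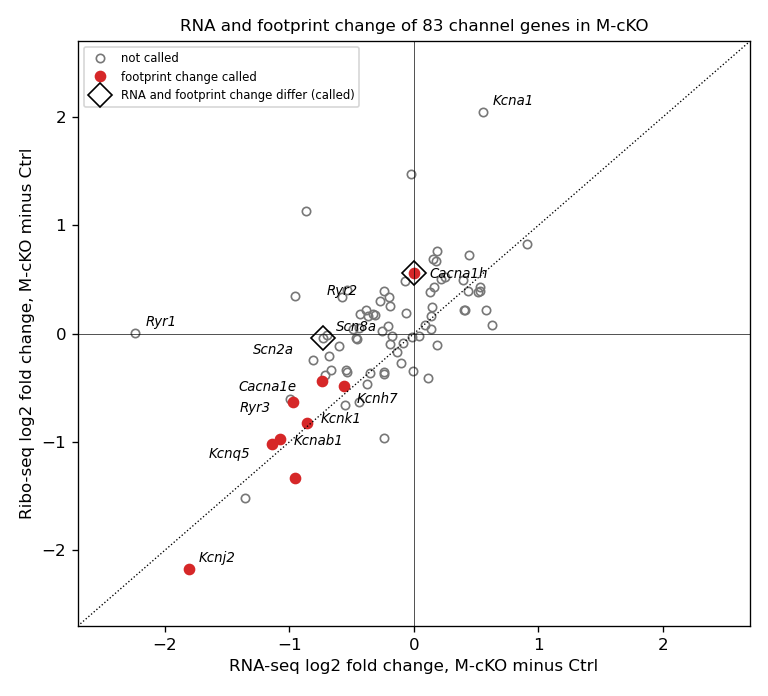
Log2 fold change of footprints (y axis) against that of RNA (x axis) in M-cKO for the 83 channel genes tested in both assays, with the line of equal change dotted. Filled points are called footprint changes and diamonds mark Cacna1h and Scn8a, where the changes differ; Ryr1 lies far left at a footprint change near 0.

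In F-cKO no TE change was called in 84 members, with a background of 0% of 13225 genes by edgeR. There were 3 members at an unadjusted *P* below 0.05, beside 1228 of all 13225 genes, and DESeq2 called none of the members. The values for *Ryr1*, *Ryr2* and *Ryr3* were 1.34 ± 0.64, 0.55 ± 0.45 and 0.62 ± 0.30, and without Ribo-seq F-cKO replicate 2 they were 0.46 ± 0.29, 0.52 ± 0.41 and 0.41 ± 0.20. The median over members was 0.48, and it was −0.05 without Ribo-seq F-cKO replicate 2.

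Of the calcium store and release partners, 4 of 27 tested fell and 2 rose in F-cKO RNA-seq, and 6 of 28 fell and 3 rose in M-cKO. The backgrounds over all genes were 9.57% lower and 11.5% higher in F-cKO, and 14.1% and 15.5% in M-cKO. The store channel *Itpr1*, which opens on IP3, fell in both (−0.50 ± 0.08 and −1.39 ± 0.10, edgeR adjusted *P* = 0.00449 and 1.67e-05), and its footprints fell in M-cKO (−1.69 ± 0.19, adjusted *P* = 0.00504). *Fkbp1b*, a protein that binds ryanodine receptors, fell in F-cKO RNA-seq (−0.55 ± 0.13) and in M-cKO footprints (−1.24 ± 0.20). Its RNA fell in M-cKO as well (−0.87 to −0.63 with 1 library left out). The scaffold *Homer3* rose in F-cKO (0.34 ± 0.08), and *Stac2* and *Homer1* fell in M-cKO (−0.78 ± 0.11 and −0.40 ± 0.06). *Stac2* also fell in F-cKO (−0.76 to −0.47 with 1 library left out), a call lost without Ctrl replicate 3 (edgeR adjusted *P* = 0.0785). *Jph3*, which tethers the store to the surface membrane, rose in footprints (0.62 ± 0.15) and in TE (0.59 ± 0.14) in M-cKO, the single riser in footprints among 25 tested. In F-cKO RNA-seq the call of *Fkbp1b* was lost without Ctrl replicate 1, Ctrl replicate 3 or F-cKO replicate 2 (edgeR adjusted *P* = 0.0518 to 0.0639) and that of *Homer3* without Ctrl replicate 3 (0.053). In M-cKO footprints, leaving out single libraries ended the calls of *Jph3* (5 of 6 libraries) and *Fkbp1b* (Ctrl replicate 1 or 2), and in TE that of *Jph3* (9 of 12 libraries, adjusted *P* = 0.0555 to 0.103). In the fit over all 9 Ribo-seq libraries the footprint calls of *Itpr1*, *Fkbp1b* and *Jph3* were lost (edgeR adjusted *P* = 0.0743, 0.189 and 0.31), as was the TE call of *Jph3* over all 18 libraries (0.54).

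Of the channel partners and other voltage-gated channels, 11 of 28 fell and 3 rose in F-cKO RNA-seq, and 9 of 28 fell and 5 rose in M-cKO, beside the same backgrounds. *Sptbn4*, a spectrin of the axon initial segment, fell in F-cKO (−0.84 ± 0.14) and had a higher TE in M-cKO (1.01 ± 0.22, edgeR adjusted *P* = 0.029), while the alpha2delta-like *Cachd1* rose in F-cKO (0.52 ± 0.08). RNA of *Sptbn4* was lower in M-cKO too (−0.53 to −0.26 with 1 library left out). That call was lost without M-cKO replicate 2 (edgeR adjusted *P* = 0.0769). *Cachd1* RNA was higher there as well (0.34 to 0.45 with 1 library left out). *Fgf11* and the ankyrin *Ank2* fell in M-cKO (−0.58 ± 0.08 and −0.41 ± 0.06), and footprints of *Fgf13*, which binds Nav channels, fell there (−0.53 ± 0.13). F-cKO fits with 1 library left out gave −0.56 to −0.35 for *Fgf13* RNA and 0.199 to 0.282 for *Fgf11* RNA. Those of M-cKO gave −0.48 to −0.34 for *Fgf13* RNA. The F-cKO call of *Fgf11* was lost without any 1 library but Ctrl replicate 1 (edgeR adjusted *P* = 0.0679 to 0.125). That of *Fgf13* was lost without Ctrl replicate 1, Ctrl replicate 3 or F-cKO replicate 2 (0.0603 to 0.0718). The *Sptbn4* TE call was lost without 6 of the 12 libraries in turn (edgeR adjusted *P* = 0.0519 to 0.0802) and the *Fgf13* footprint call without 5 of 6 (0.0647 to 0.0994), and both were lost in the fits over all libraries (0.175 and 0.396). No gene of these lists passed in F-cKO footprints or TE.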

How the data were processed

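The members and the gene lists were chosen with earlier results of these data known. The deposited RNA-seq values were counts per gene and FPKM, from reads the authors aligned with HISAT2 2.0.5, and the deposited Ribo-seq values were counts and RPKM from TopHat2 and HTSeq, on mm10 per the labels. Ribo-seq counts were blank in 8 of 9 libraries for 40490 of 54838 genes, 42 members among them, and such genes were left out of count tests. Symbols came from a gene name table, which matched 54723 of 55153 identifiers.

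Counts were tested with edgeR 4.0.16 (TMM, filterByExpr with a minimum count of 10 and a total of 15, quasi-likelihood test) on the libraries compared, with Benjamini-Hochberg adjustment over all genes tested and a threshold of 0.05. TE was tested as the interaction of assay and genotype in place of RiboDiff. Standard errors are the fold change over the root of F. Scripts were tested on simulated data. Alternatives were DESeq2 1.42.0, RLE scaling, no filter, all libraries in 1 fit, a replicate block, protein-coding genes alone and each library left out.

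Named members were all called ones where 16 or fewer, otherwise the 8 of lowest adjusted *P* among those that rose and the 8 among those that fell, the *Ryr* genes, the leading member of each class by Ctrl FPKM, and 3 genes per partner list. Of the cell type lists, in F-cKO and M-cKO RNA-seq respectively, the genes higher (lower) were 4 (1) and 5 (2) of 9 for excitatory neurons, 6 (0) and 3 (0) of 9 for progenitors, 2 (0) and 7 (0) of 7 for interneurons, 4 (0) and 5 (1) of 7 for striatum, 1 (0) and 2 (0) of 4 for thalamus, 0 (1) of 6 and none for endothelium, 0 (3) of 6 and none for meninges, 0 (1) of 5 and none for erythroid cells, 0 (1) of 1 and none of 2 for cardiac and smooth muscle, and none for skeletal muscle, microglia and choroid plexus. Strand use in counting is not given in the sources used here, and 62 members overlap another gene model, 15 of them a coding one. A few genes that this rule would name are not reported here.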

Additional observations from a re-analysis of the deposited data

Results flagged for a closer look

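The knockout effect on footprints differed from that on RNA in M-cKO for *Scn8a* (0.76 on the log2 scale) and *Cacna1h* (0.62), by the interaction test of edgeR.

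Members with blank footprint counts still have deposited RPKM values, which entered no test. In the following all 3 M-cKO libraries exceeded all 3 Ctrl libraries, with M-cKO means of 0.418 RPKM for the delayed rectifier *Kcnc4*, 0.264 for *Kcnh1*, 0.333 for *Scn4b*, 0.15 for *Scn10a* and 0.0637 for *Kcnv2*. *Kcnh1* also rose in M-cKO RNA-seq, as did *Kcnc4*, whose call was lost without Ctrl replicate 2 or 3 or M-cKO replicate 1 or 2 (edgeR adjusted *P* = 0.0597 to 0.117), whereas M-cKO replicate 2 held most of the signal in *Scn4b* (0.0487, 0.843 and 0.106 RPKM) and *Scn10a* (0.0686, 0.362 and 0.0199). In F-cKO the same held for *Kcna5* (mean 0.156 RPKM) and *Scn11a* (0.071). These genes were picked for this separation from the 42 members with blank counts, and no share over all genes stands beside them. The levels are low and the differences were not tested.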

How the results depend on the processing

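Of the alternative values for the genes named, 1918 kept their direction and their side of the threshold, 262 no longer passed it, 19 newly passed it and 43 changed sign. Members called in RNA-seq, 39 for F-cKO and 49 for M-cKO, were 36 to 47 and 47 to 55 over DESeq2, RLE scaling, all libraries in 1 fit and no filter, and leaving out 1 library gave 14 to 35 and 38 to 50. For M-cKO against F-cKO (37 called) it gave 21 to 33. In M-cKO footprints (10 called) leaving out 1 library gave 0 to 12 and the fit over all libraries 0. The 2 TE calls in M-cKO became 0 over all libraries, 7 with DESeq2 and 0 to 8 with 1 library left out. The cause of these shifts was not tested. The median TE of members in Ctrl was 0.309 with a minimum of 0.1 FPKM and 0.335 with none.

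Within an assay, same-numbered libraries of different genotypes deviated together with r of −0.14 to 0.16 in RNA-seq and −0.28 to 0.16 in Ribo-seq. These values showed no clear pairing by replicate number within an assay. Pairing of RNA-seq with Ribo-seq libraries of the same number was not examined. The replicate block left 25 members in F-cKO RNA-seq, 48 in M-cKO RNA-seq, 4 in M-cKO footprints and 0 in M-cKO TE, and gave −0.40 for *Ryr1* footprints in M-cKO and −0.029 for *Kcnj11* TE in F-cKO.

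Some values changed sign. *Kcnj11* RNA in M-cKO was 0.0015 over all libraries and 0.015 without a filter, and *Cacnb3* TE in M-cKO was −0.00087 with DESeq2 and −0.00097 with RLE scaling. With 1 library left out, RNA values ranged for *Cacna2d1* from −0.14 to 0.033 in F-cKO, for *Cacna1h* from −0.027 to 0.048, *Kcnj11* from −0.069 to 0.054 in M-cKO, and for *Kcnk2* from −0.10 to 0.032 in M-cKO against F-cKO. Footprint values in F-cKO ranged for *Ryr2* from −0.31 to 0.19, *Kcnip3* from −0.0029 to 0.28, *Ryr1* from −0.068 to 1.26, *Ryr3* from −0.14 to 0.32, *Kcnk2* from −0.12 to 0.64, *Cacna2d1* from −0.038 to 1.77, *Cacna1h* from −0.050 to 1.8, *Scn3b* from −0.041 to 0.94, *Scn3a* from −0.34 to 0.98, *Kcnn2* from −0.024 to 1.24, *Kcnj11* from −0.14 to 0.68, with the lower end without replicate 2 except for *Ryr2* and *Kcnip3*. Footprint values in M-cKO ranged for *Ryr1* from −1.13 to 0.39, *Scn3b* from −0.038 to 0.096, *Kcnip3* from −0.0095 to 0.21. TE values in F-cKO ranged for *Scn3a* from −0.20 to 1.00, *Kcnn2* from −0.38 to 0.70, *Kcnj11* from −0.41 to 0.27, *Cacnb3* from −0.059 to 0.20, and in M-cKO for *Kcnk2* from −0.17 to 0.074, *Cacnb3* from −0.067 to 0.092, *Kcnn2* from −0.18 to 0.061. F-cKO replicate 2 and M-cKO replicate 2 were the shallowest Ribo-seq libraries (10973699 and 13764136 counts), and the part of depth in these results was not tested.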
